A study of Homo sapiens and Canis lupus familiaris with 27 samples.

Results

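The genes described here encode the enzymes that copy DNA at the replication fork and the factors that start and accompany them. They were chosen by name: a list of 36 genes was matched to the first column of the gene count tables, and the MCM helicase genes were left out. All 36 were in the PC-3 and LNCaP tables, each of 23708 genes, and all 36 passed the filter on low counts in both. The canine CT1258 table of 16028 genes held 32 of them. PRIM2, POLD2, POLE2 and GINS1 were not analysed there, and RNASEH2C had 0 counts in all 9 CT1258 samples, so 31 members were tested in that line.

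The study exposed cell lines to PDA-66, an indolylmaleimide dissolved in DMSO, and sequenced polyadenylated RNA. PC-3 (a prostate adenocarcinoma line from a bone marrow metastasis), LNCaP (one from a lymph node metastasis) and CT1258 (a prostate adenocarcinoma line of the dog) were each given PDA-66 at 15 µM, and RNA was taken 12 h or 24 h later. The control of each line received 0.15% DMSO for 24 h. Each group held 3 samples, except the PC-3 DMSO group, of which 2 (replicates 2 and 3) are in the count table. The 12 h samples thus had a control of 24 h, and 12 h less in culture cannot be told apart from the shorter exposure. Each line is a single established line, so the spread is that between cultures of it.

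At the fork, DNA polymerase alpha with its primase lays down short primers, polymerase epsilon extends the leading strand and polymerase delta the lagging strand. The sliding clamp PCNA, loaded by replication factor C (RFC), holds the polymerases on the template, and the trimer RPA covers single-stranded DNA. FEN1, DNA2 and the RNases H remove primers and DNA ligase 1 (LIG1) joins the Okazaki fragments, while CDC45 and the GINS complex complete the helicase at origins fired by the kinase CDC7 with its activator DBF4. Most of these genes are known to be transcribed more in cells that enter S phase. SSBP1 belongs elsewhere: it encodes the single-strand binding protein of mitochondria and was on the list by name. In bulk RNA, more cells in S phase and more mRNA in each cell cannot be told apart.

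Total counts ran from 14650839 to 18091755 in PC-3, from 11923105 to 14741883 in LNCaP and from 7203534 to 20976950 in CT1258, where the mean of the DMSO samples was 2.64 times that of the PDA-66 samples. Levels are given in the counts-per-million unit (CPM), with library sizes scaled by TMM. Replicates were least alike in LNCaP, where edgeR put the coefficient of variation between samples at 0.240, against 0.0971 for PC-3 and 0.100 for CT1258. The 4 epithelial markers summed to between 517 and 576 CPM in PC-3 with DMSO, between 334 and 371 CPM after 12 h and between 331 and 455 CPM after 24 h, and to between 1334 and 2039 CPM in LNCaP. CT1258 had 1 of those 4 in its table, at no more than 0.262 CPM in any sample, so its epithelial origin could not be read from them. The 4 markers of other cell types summed to at most 19.1 CPM in any PC-3 sample and 0.447 CPM in any LNCaP sample. The part of depth and of these markers in the results was not tested.

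Several libraries stood apart on these genes. In replicate 2 of the LNCaP PDA-66 12 h group, 8 members lay more than 1 log2 unit above the mean of replicates 1 and 3 and 3 members lay more than 1 below it. RNASEH2C was 1.73 higher, POLD1 1.54 higher and FEN1 1.47 higher, while POLD3 was 1.23 lower and CDC7 1.06 lower. The deviation followed the GC content of the transcript, with a Spearman rho of 0.85 across the 36 members and 0.76 across 11828 genes, which share the library and are not independent replicates. The part of GC content in the results was not tested in any line, and many of the LNCaP results are given with and without that library. The median absolute deviation of that library from the mean of its group's other samples was 0.760 log2 units over the members. LNCaP DMSO replicate 3 stood at 0.524 by the same measure, with 2 members more than 1 below, against 0.287 and 0.192 in the other DMSO samples. CT1258 DMSO replicate 2 stood at 0.342, against 0.165 and 0.132 in replicates 1 and 3, with no member beyond 1. Over the members, the deviation also followed GC content in libraries that deviated less. PC-3 PDA-66 24 h replicate 3 had a rho of 0.82, at 0.169 log2 units. LNCaP PDA-66 24 h replicate 2 had -0.76, at 0.0785, and replicate 3 had 0.17, at 0.0408.

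**Figure D1:**
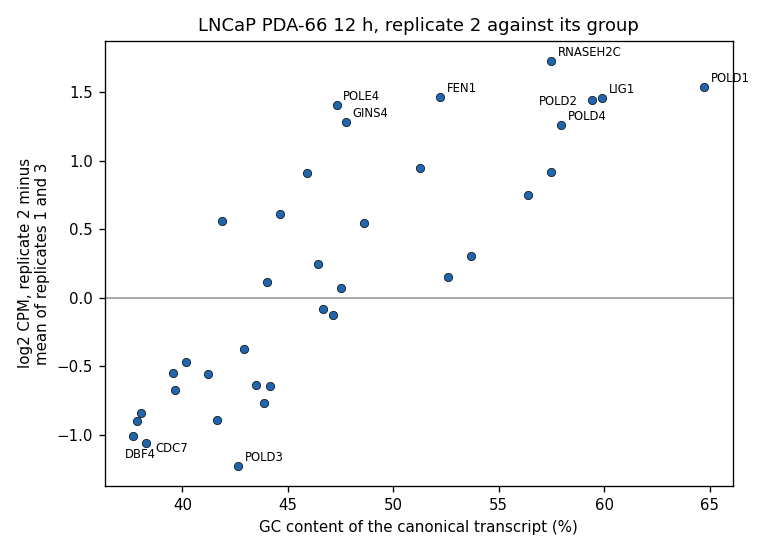
Difference in log2 CPM between replicate 2 and the mean of replicates 1 and 3 of the LNCaP PDA-66 12 h group (y axis) against the GC content of each gene's canonical transcript in percent (x axis). Each point is 1 of the 36 genes, and those more than 1 log2 unit from 0 are named. The points rise from POLD3, at -1.23, to POLD1, at 1.54, and RNASEH2C, at 1.73.

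After PDA-66 the mRNA of many fork genes was higher in PC-3. A gene was called changed at an adjusted p under 0.001 in the quasi-likelihood test of edgeR, adjusted by Benjamini-Hochberg across the 13777 genes that passed the filter in that line. After 12 h, 16 of 36 members rose, where 13.0% of all genes tested did, and 1 fell, where 14.6% did. After 24 h, 17 rose, against 8.88% of all genes, and 1 fell, against 10.5%. The median log2 fold change of the members was 0.58 after 12 h and 0.63 after 24 h, and that of all genes tested was -0.01 at each time. In all, 19 genes rose at 1 or both times, and the gene that fell was POLD4.

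In CT1258, 15 of 31 members rose and 2 fell after 12 h, where 22.2% and 22.1% of the 9886 genes tested did. After 24 h, 12 rose and 1 fell, against 16.6% and 17.2%. The median of the members was 0.49 after 12 h and 0.31 after 24 h, and 24 of 31 values were above 0 at each time. The genes that fell were POLD4 at both times and RNASEH2A after 12 h. Without DMSO replicate 2, 25 members were called after 12 h and 17 after 24 h, while the called share of all genes rose to 56.0% and 46.6%.

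In LNCaP no member passed 0.001, where 0.00760% of the 13156 genes tested did after 12 h and 0% after 24 h. At an unadjusted p under 0.05, 29 of 36 members differed after 12 h and 26 after 24 h, where 30.0% and 19.8% of all genes did. With an adjusted p under 0.05 as a second threshold, 19 members rose after 12 h, where 4.52% of all genes did, and 12 after 24 h, where 1.35% did. None fell at that threshold, where 4.62% and 1.57% of all genes fell. The log2 fold change was above 0 for 36 of 36 members after 12 h and 34 of 36 after 24 h, with medians of 0.97 and 0.93. Without replicate 2 of the 12 h group it was above 0 for 35 of 36 at each time, with medians of 1.10 and 0.93. DESeq2's Wald test called 17 members after 12 h and 9 after 24 h at 0.001, against 4.71% and 2.17% of all genes, and limma voom with sample quality weights called 25 and 27, against 13.9% and 11.2%. The likelihood ratio test of edgeR called 16 and 9, against 4.34% and 1.96%. Without replicate 2 of the 12 h group, edgeR called 10 and 6 members at 0.001 (1.96% and 0.787% of all genes), and 28 and 29 members were under 0.05, where 29.1% and 27.9% of all genes were. The counts at 0.05 also rested on other samples. After 12 h there were 9 members without DMSO replicate 2 and 8 without DMSO replicate 3. After 24 h there were 0 without DMSO replicate 2, DMSO replicate 3 or any 1 of the 24 h samples, and 7 without replicate 3 of the 12 h group. The shares of all genes in those fits are not given here, so a loss particular to the members cannot be read from these counts. Without DMSO replicate 3 the medians were 0.82 and 0.76.

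The summed level of the members was higher in every treated sample than in the controls. In PC-3 the 36 genes together took 2248 and 2363 CPM in the DMSO samples, between 3009 and 3061 CPM after 12 h and between 3110 and 3395 CPM after 24 h. In LNCaP they took between 1578 and 2120 CPM with DMSO, 3333, 4570 and 3340 CPM after 12 h, the highest being replicate 2, and between 3041 and 3177 CPM after 24 h. In CT1258 the 32 listed genes took between 1569 and 1856 CPM with DMSO, between 2383 and 2465 CPM after 12 h and between 2164 and 2189 CPM after 24 h. All values for single genes below are CPM for samples and log2 fold changes ± SE for comparisons.

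**Figure D2:**
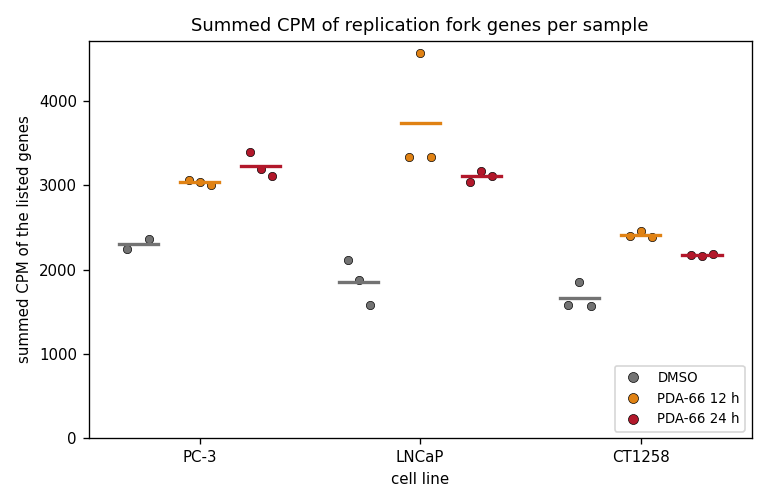
Summed CPM of the listed genes (y axis, from 0) in each sample of PC-3, LNCaP and CT1258 (x axis). Points are samples, bars group means, grey DMSO, orange PDA-66 for 12 h and red PDA-66 for 24 h. Each line's PDA-66 samples lie above its DMSO samples, and LNCaP 12 h replicate 2 stands alone at 4570 CPM.

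**Figure D3:**
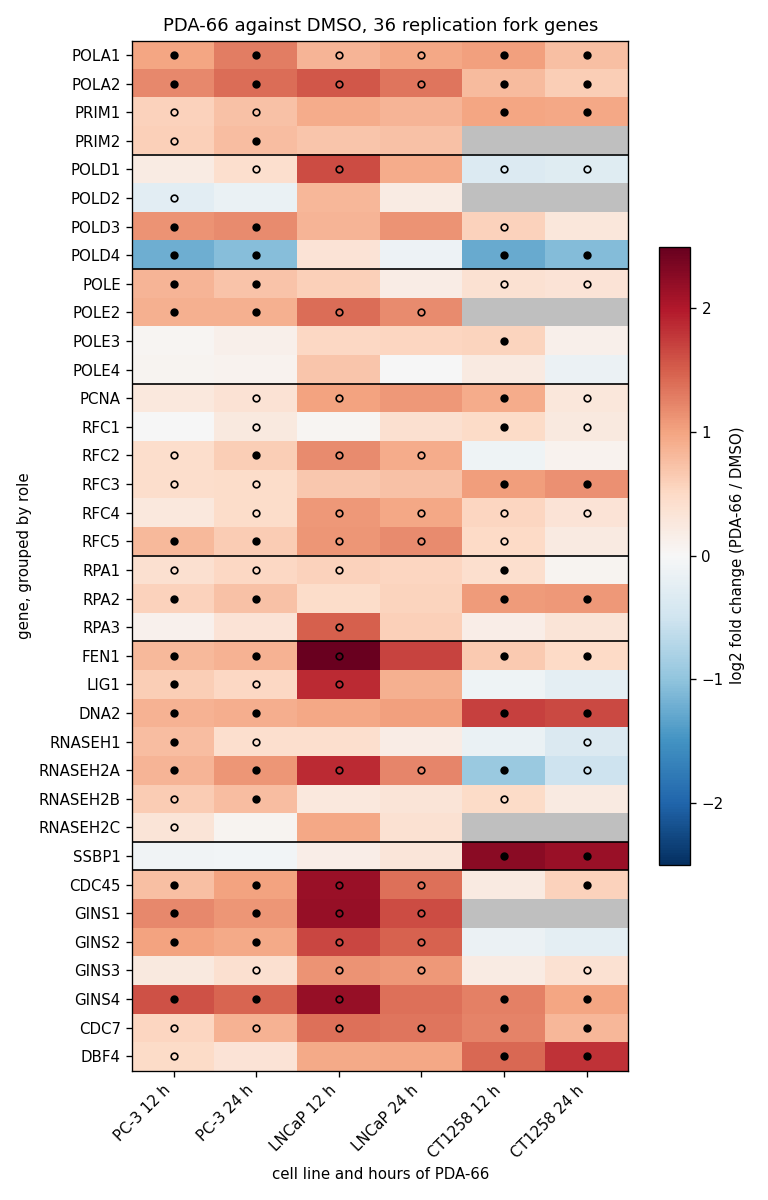
Log2 fold change of PDA-66 over DMSO (colour) for the 36 genes, in rows grouped by role, in each cell line and time, in columns. Filled dots mark an adjusted p under 0.001, open dots one under 0.05, and grey cells genes not tested. Red fills most of the map, with blue for POLD4 in PC-3 and CT1258 and for RNASEH2A in CT1258.

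Both non-primase subunits of polymerase alpha rose in the 3 lines, in LNCaP at 0.05. POLA1, the catalytic subunit, was at 48.6 and 38.6 in PC-3 with DMSO, 88.8, 84.1 and 86.3 after 12 h and 120.3, 107 and 88.1 after 24 h. Its log2 fold change was 0.99 ± 0.14 and 1.27 ± 0.14 there (adjusted p = 5.15e-05 and 1.15e-05), with no overlap of the groups. In CT1258, POLA1 was at 23.1, 17.7 and 22.2 with DMSO, 42.8, 41.1 and 43.7 after 12 h and 36.8, 33.0 and 36.8 after 24 h, again without overlap, and rose by 1.02 ± 0.11 and 0.76 ± 0.11. In LNCaP it was at 34.3, 37.8 and 31.2 with DMSO, 69.7, 52.0 and 65.4 after 12 h and 67.8, 68.5 and 66.2 after 24 h, a log2 fold change of 0.86 ± 0.16 and 0.97 ± 0.16 (adjusted p = 0.0153 and 0.0243), and 0.98 ± 0.11 after 12 h without replicate 2.

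POLA2, the subunit that tethers the polymerase to its primase, rose in the same comparisons. In PC-3 it was at 33.6 and 20.9 with DMSO, 60.6, 64.1 and 62.8 after 12 h and 72.8, 68.4 and 73.7 after 24 h. The lowest treated value was thus well above both controls, and the log2 fold change was 1.20 ± 0.16 and 1.39 ± 0.16 (adjusted p = 2.81e-05 and 1.39e-05). LNCaP went from 34.0, 27.3 and 21.2 with DMSO to 74.6, 92.4 and 75.1 after 12 h and 69.6, 71.7 and 68.5 after 24 h. These groups did not overlap, and the log2 fold change of 1.55 ± 0.20 had the lowest adjusted p of any member in LNCaP (0.00566, and 0.0177 after 24 h). Without replicate 2 of the 12 h group it was 1.45 ± 0.16. In CT1258 POLA2 rose by 0.80 ± 0.10 and 0.61 ± 0.10. In the human annotation 16.8% of the exon bases of POLA2 lie in exons of another protein-coding gene on the same strand (ENSG00000285816). Of the primase subunits, PRIM1 rose in CT1258 (0.99 ± 0.12 and 0.97 ± 0.12) and PRIM2 in PC-3 after 24 h (0.77 ± 0.12). The PRIM2 call was lost in 5 of 17 alternatives. The exons of PRIM2 share 12.9% of their bases with the pseudogene PRIM2BP, so its counts are less certain.

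The promoters of these subunits are shown for the letters of the E2F site, since many genes of the set rose after PDA-66 and E2F factors are known to bind upstream of many replication genes. RefSeq (GRCh38.p14) gave the window from 250 bases before to 50 after the start of 31 of the 36 genes, without POLD3, RPA2, RPA3, DNA2 and GINS4. For these letters the search took TTTCCCGC, TTTCGCGC, TTTGGCGC and TTTGCCGC on both strands. They stood in 12 of the 31 windows (38.7%) and in 897 of 27058 promoters of the same length (3.32%). The 12 windows were those of POLA1, POLA2, POLE, POLE2, POLE4, PCNA, RFC3, LIG1, GINS1, GINS2, GINS3 and SSBP1. The letters CCAAT stood in 15 of the 31 (48.4%) and in 35.7% of all promoters, and TTTGAA or TTTAAA, the letters of the cell cycle homology region, in 1 of the 31 (DBF4) and in 24.3% of all promoters. The 3 searches were run separately and matches could overlap. A match is a run of letters and not a site shown to be bound. The 4 windows below run 5′ to 3′ on the strand of the gene, with E2F letters in capitals. POLA1 (chrX:24693668-24693967, plus strand) and POLA2 (chr11:65261712-65262011, plus strand) rose in all lines and hold 1 match each. FEN1 (chr11:61792661-61792960, plus strand) also rose in all lines, and POLD4 (chr11:67353547-67353846, minus strand) fell in PC-3 and CT1258. These last windows do not hold those letters. Nor does that of CDC45, which also rose in all lines, while SSBP1 and POLE4 hold 1 match each and were not called in PC-3. A link between the letters and the response was not tested.
POLA1: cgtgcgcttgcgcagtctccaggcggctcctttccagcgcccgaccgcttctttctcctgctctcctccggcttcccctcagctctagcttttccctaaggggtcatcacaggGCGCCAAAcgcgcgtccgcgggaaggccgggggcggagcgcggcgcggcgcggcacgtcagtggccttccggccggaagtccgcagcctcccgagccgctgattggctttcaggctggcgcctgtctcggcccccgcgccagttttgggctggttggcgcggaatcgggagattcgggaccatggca
POLA2: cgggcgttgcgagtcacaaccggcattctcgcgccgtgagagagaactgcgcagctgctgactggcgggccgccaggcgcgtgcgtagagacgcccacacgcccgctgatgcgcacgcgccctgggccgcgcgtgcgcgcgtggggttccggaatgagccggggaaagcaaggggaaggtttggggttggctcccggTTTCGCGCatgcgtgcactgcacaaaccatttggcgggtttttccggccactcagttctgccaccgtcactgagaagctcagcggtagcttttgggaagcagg
FEN1: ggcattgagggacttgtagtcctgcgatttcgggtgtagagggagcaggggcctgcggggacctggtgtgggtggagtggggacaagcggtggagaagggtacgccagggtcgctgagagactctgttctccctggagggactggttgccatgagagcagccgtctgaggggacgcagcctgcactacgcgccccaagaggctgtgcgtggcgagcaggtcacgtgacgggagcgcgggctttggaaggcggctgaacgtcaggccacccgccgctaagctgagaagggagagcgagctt
POLD4: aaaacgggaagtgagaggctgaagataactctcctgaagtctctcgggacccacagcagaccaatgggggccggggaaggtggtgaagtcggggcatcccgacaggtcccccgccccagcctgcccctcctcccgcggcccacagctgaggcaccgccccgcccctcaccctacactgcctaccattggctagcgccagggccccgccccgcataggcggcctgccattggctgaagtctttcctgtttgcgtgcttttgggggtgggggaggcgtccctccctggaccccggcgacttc

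Polymerase delta was split in PC-3, with 1 subunit up and another down in the same cells. POLD3, an accessory subunit, was at 26.3 and 27.6 in PC-3 with DMSO, 59.0, 56.1 and 59.8 after 12 h and 68.9, 60.5 and 52.8 after 24 h. It rose by 1.11 ± 0.12 and 1.17 ± 0.12 without overlap (adjusted p = 6.36e-06 and 7.71e-06). POLD4, the smallest subunit, was at 73.3 and 99.1 with DMSO, 35.6, 38.0 and 37.3 after 12 h and 35.7, 41.4 and 46.0 after 24 h. All treated samples lay below both controls, and POLD4 was 2.33 times lower after 12 h and 2.10 times lower after 24 h (log2 fold change -1.22 ± 0.13 and -1.07 ± 0.13, adjusted p = 6.66e-06 and 3.28e-05).

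The same subunit fell in the canine line. POLD4 was at 17.8, 19.9 and 19.3 in CT1258 with DMSO, 8.13, 6.96 and 8.69 after 12 h and 9.33, 8.92 and 8.55 after 24 h. The groups were far apart, with a log2 fold change of -1.26 ± 0.13 and -1.09 ± 0.12 (adjusted p = 1.11e-06 and 6.48e-06), from 58 to 76 reads in each treated sample. In LNCaP, POLD4 was at 38.9, 29.0 and 35.0 with DMSO, 28.1, 71.1 and 31.3 after 12 h and 31.8, 28.5 and 33.7 after 24 h. The groups overlapped there and the high value was that of replicate 2, without which the 12 h log2 fold change was -0.21 ± 0.14 (adjusted p = 0.295) in place of 0.34 ± 0.32 (adjusted p = 0.503). The responses of PC-3 and LNCaP differed after 12 h in the test of the difference between lines (difference -1.52 ± 0.32, adjusted p = 0.00196), and -1.01 ± 0.19 without that library (adjusted p = 0.000250). After 24 h the difference was -0.92 ± 0.32 (adjusted p = 0.0750), and without that library it passed the threshold of 0.05 (-0.93 ± 0.18, adjusted p = 0.000465). POLD4 lies at chr11:67118243-67124443 on the minus strand (GRCh37), and 21.3% of its exon bases are shared with a protein-coding gene on the same strand (ENSG00000256514).

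POLD1 and POLD2, the other subunits of polymerase delta, passed 0.001 in no comparison with DMSO in which they were tested. POLD1, the catalytic subunit, had log2 fold changes of 0.20 and 0.41 in PC-3 and -0.33 and -0.31 in CT1258. In LNCaP its log2 fold change was 1.64 ± 0.41 after 12 h (adjusted p = 0.0378) and 0.92 ± 0.40 after 24 h (adjusted p = 0.241). Its 12 h samples were at 74.9, 232 and 85.3, the highest being replicate 2, without which the 12 h log2 fold change was 0.93 ± 0.19 (adjusted p = 0.00593). POLD2 had -0.27 and -0.17 in PC-3.

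In polymerase epsilon the calls in PC-3 fell on the large subunits. POLE, its catalytic subunit, rose in PC-3 by 0.85 ± 0.12 and 0.72 ± 0.11, and POLE2, which stabilises it, by 0.90 ± 0.14 and 0.90 ± 0.14. POLE2 was also under 0.05 in LNCaP (1.40 ± 0.26 and 1.19 ± 0.26), with 1.60 ± 0.19 after 12 h without replicate 2. Of the histone-fold subunits, POLE3 rose in CT1258 after 12 h (0.56 ± 0.09) and passed 0.001 in no other comparison with DMSO. POLE4 was called nowhere with all samples included, with values from -0.15 in CT1258 after 24 h to 0.70 in LNCaP after 12 h. Without replicate 2 of the LNCaP 12 h group that last value was 0.08 ± 0.11 (adjusted p = 0.617). Without CT1258 DMSO replicate 2, POLE4 was called in CT1258 after 12 h (0.51 ± 0.09, adjusted p = 2.26e-05). After 24 h it was not (0.14 ± 0.09, adjusted p = 0.177).

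The clamp and its loader changed by smaller amounts in PC-3. There RFC5 rose at both times (0.80 ± 0.12 and 0.64 ± 0.12) and RFC2 after 24 h (0.61 ± 0.09), while PCNA (0.27 and 0.36), RFC1, RFC3 and RFC4 did not pass 0.001. The 24 h call of RFC5 was lost in 11 of 17 alternatives. In LNCaP, RFC2, RFC4 and RFC5 were under 0.05 at both times, with log2 fold changes between 0.93 and 1.18. PCNA was under 0.05 there after 12 h only, a call lost in 10 of 18 alternatives. Without replicate 2 of the 12 h group, PCNA rose in LNCaP by 1.20 ± 0.22 and 1.08 ± 0.20 (adjusted p = 0.00351 and 0.00473).

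In CT1258 other members of the loader rose, RFC1 after 12 h (0.47 ± 0.10, a call lost in 8 of 18 alternatives) and RFC3 at both times. RFC3, a small subunit, was at 25.8, 27.2 and 25.4 with DMSO, 51.4, 51.0 and 59.1 after 12 h and 55.6, 58.8 and 58.2 after 24 h. It rose by 1.04 ± 0.09 and 1.14 ± 0.09 without overlap (adjusted p = 4.47e-07 and 3.68e-07), where RFC2 stood at -0.12 and 0.09. The response of RFC2 differed between PC-3 and CT1258 (difference 0.54 ± 0.18, adjusted p = 0.0239 after 12 h), and the difference for RFC3 did not pass the threshold (-0.62 ± 0.28, adjusted p = 0.0988). Without replicate 2 of the LNCaP 12 h group it passed (-0.64 ± 0.20, adjusted p = 0.00952). PCNA was at 118, 146 and 120.1 in CT1258 with DMSO, 246, 254 and 233 after 12 h and 168, 148 and 148 after 24 h. It rose after 12 h (0.93 ± 0.10, adjusted p = 1.44e-06) and not at 0.001 after 24 h (0.27 ± 0.10, adjusted p = 0.0236). Without DMSO replicate 2, PCNA passed 0.001 after 24 h as well (0.37 ± 0.07, adjusted p = 9.96e-05), and the 12 h value was 1.03 ± 0.07.

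PCNA in CT1258 was also the member whose level moved between the time points. From 12 h to 24 h it fell by 0.66 on the log2 scale (SE 0.10, adjusted p = 0.000585), where 2.13% of all genes were called, and no treated samples of the 2 times overlapped. That call was lost without any 1 of the 6 PDA-66 samples of CT1258. Without DMSO replicate 2 the count of members rose to 6, where 13.6% of all genes were called. Between 12 h and 24 h no member was called in PC-3 (1.41% of all genes) or LNCaP (0% of all genes) in edgeR's test, with 7 and 4 of 36 members at an unadjusted p under 0.05, against 24.5% and 6.36% of all genes. DESeq2's Wald test called 0 in both (3.75% and 0.00760% of all genes), and voom with quality weights 6 in PC-3 and 0 in LNCaP (16.8% and 1.44%). The likelihood ratio test of edgeR called 0 in both (5.05% and 0.0304%).

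Of the RPA trimer, RPA2 rose in PC-3 (0.57 ± 0.09 and 0.73 ± 0.09) and CT1258 (1.07 ± 0.10 and 1.08 ± 0.10), with a difference between these lines of -0.51 ± 0.16 after 12 h and -0.36 ± 0.16 after 24 h (adjusted p = 0.0159 and 0.103). Without replicate 2 of the LNCaP 12 h group the 24 h difference was -0.37 ± 0.14 (adjusted p = 0.0345). RPA1, which holds most of the DNA-binding domains, rose in CT1258 after 12 h (0.42 ± 0.08), a call lost in 9 of 18 alternatives. RPA3 was under 0.05 in LNCaP after 12 h (1.49 ± 0.30, and 1.12 ± 0.21 without replicate 2, adjusted p = 0.00364) and was not called at 0.001 in any line.

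Of the 7 enzymes that process primers, 5 rose in PC-3 after 12 h and 4 after 24 h, where 13.0% and 8.88% of all genes did. FEN1, the flap endonuclease, was at 82.9 and 82.6 in PC-3 with DMSO, 142, 148 and 143 after 12 h and 160.2, 146 and 148 after 24 h. The controls were nearly equal and all treated samples lay above them (0.80 ± 0.09 and 0.87 ± 0.09, adjusted p = 9.64e-06 and 8.84e-06). In LNCaP, FEN1 was at 84.2, 56.1 and 41.4 with DMSO, 202, 583 and 220.5 after 12 h and 195, 196 and 198 after 24 h. No samples overlapped, and the log2 fold change of 2.47 ± 0.42 after 12 h (adjusted p = 0.0111) became 1.80 ± 0.22 without replicate 2 (adjusted p = 0.000672). In CT1258 FEN1 rose by 0.65 ± 0.09 and 0.51 ± 0.09. The response of FEN1 was larger in LNCaP than in PC-3 after 12 h (difference -1.62 ± 0.37, adjusted p = 0.00383, and -0.996 ± 0.21 without that library).

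DNA2, a nuclease and helicase that trims long flaps, was at 16.3, 20.9 and 19.2 in CT1258 with DMSO, 66.1, 62.1 and 56.5 after 12 h and 51.4, 61.2 and 64.3 after 24 h. That was 3.28 and 3.14 times the control level, without overlap (1.71 ± 0.12 and 1.65 ± 0.12, adjusted p = 4.92e-08 and 1.09e-07). In PC-3 it rose by 0.87 ± 0.15 and 0.91 ± 0.15, less than in CT1258 after 12 h (difference -0.85 ± 0.31, adjusted p = 0.0370). LIG1 rose in PC-3 after 12 h (0.61 ± 0.10), a call lost in 6 of 16 alternatives. It stood at -0.10 and -0.24 in CT1258, and at 0.06 and -0.08 without DMSO replicate 2, without a call. In LNCaP, LIG1 was under 0.05 after 12 h, a call lost in 4 of 18 alternatives. Without replicate 2 of that group it rose by 1.21 ± 0.21 and 0.90 ± 0.19 (adjusted p = 0.00252 and 0.00800).

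RNASEH2A, the catalytic subunit of RNase H2, rose in the human lines and fell in the canine line after 12 h. In PC-3 it was at 60.1 and 69.1 with DMSO, 106, 121 and 121 after 12 h and 145, 129 and 141 after 24 h. In LNCaP it was at 51.1, 47.2 and 34.0 with DMSO, 117, 235 and 132 after 12 h and 102, 103 and 103 after 24 h. In CT1258 it was at 63.8, 89.9 and 61.1 with DMSO, 36.6, 34.7 and 41.8 after 12 h and 57.4, 46.6 and 46.7 after 24 h. Every treated human sample lay above its controls and every treated CT1258 sample below its own. On the log2 scale the changes at 12 h and 24 h came to 0.84 ± 0.11 and 1.10 ± 0.11 for PC-3, LNCaP having 1.87 ± 0.27 (1.498 ± 0.15 without replicate 2) and 1.22 ± 0.27, and CT1258 having -0.93 ± 0.15 and -0.51 ± 0.14. PC-3 had an adjusted p of 2.54e-05 after 12 h and 5.60e-06 after 24 h, LNCaP one of 0.00784 and 0.0459, and CT1258 one of 7.40e-05 and 0.00725. The responses of PC-3 and CT1258 differed by 1.75 ± 0.30 after 12 h and 1.60 ± 0.29 after 24 h (adjusted p = 8.86e-05 and 0.000445). The human gene, at chr19:12917398-12924454 on the plus strand (GRCh37), shares 53.3% of its exon bases with THSD8 on the same strand, so its human counts may hold reads of both. RNASEH1 rose in PC-3 after 12 h (0.78 ± 0.10) and stood at -0.16 ± 0.13 and -0.36 ± 0.13 in CT1258, a difference between these lines of 0.92 ± 0.22 and 0.77 ± 0.22 (adjusted p = 0.00257 and 0.0142). For the other subunits of RNase H2, RNASEH2B rose in PC-3 after 24 h (0.78 ± 0.15), a call lost in 10 of 17 alternatives. RNASEH2C was called in neither human line.

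**Figure D4:**
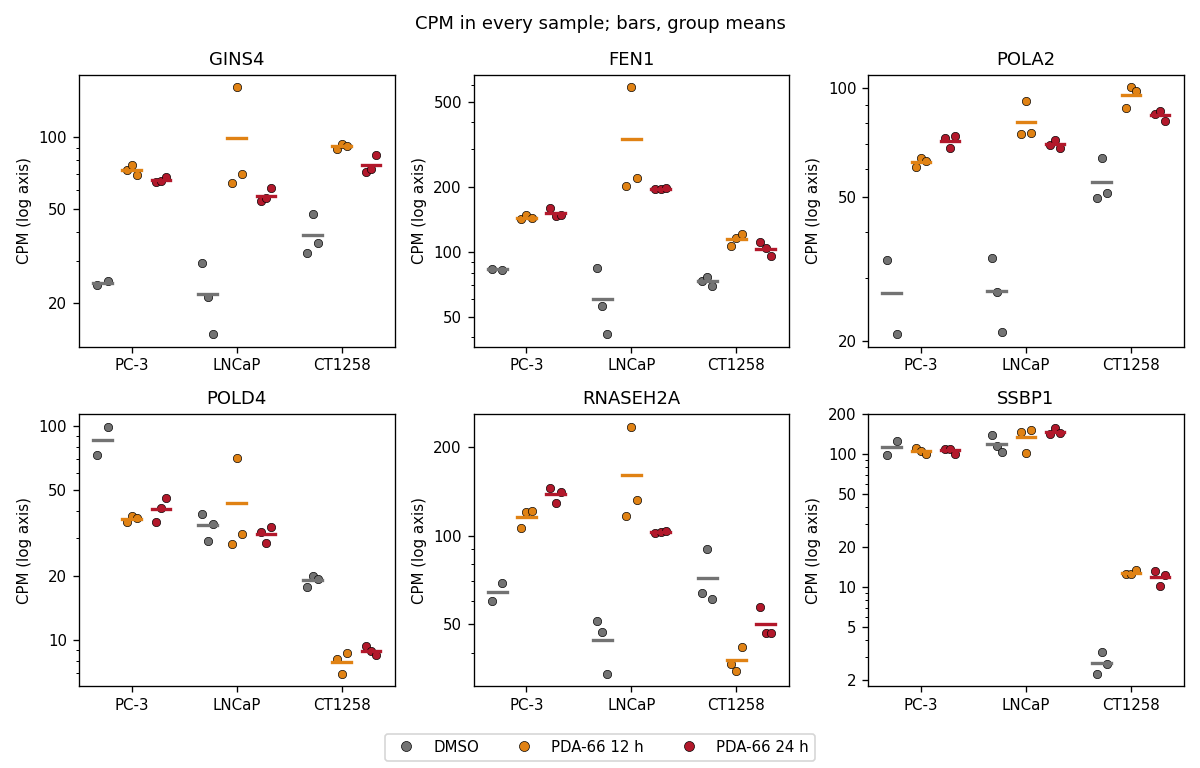
CPM on a log axis for GINS4, FEN1, POLA2, POLD4, RNASEH2A and SSBP1 in every sample of PC-3, LNCaP and CT1258. Points are samples, bars group means, grey DMSO, orange PDA-66 for 12 h and red PDA-66 for 24 h. POLD4 falls in PC-3 and CT1258, RNASEH2A falls in CT1258 alone of the 3 lines, and SSBP1 stands near 2 to 3 CPM in CT1258 with DMSO and above 10 CPM after PDA-66.

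GINS4 was the member with the largest log2 fold change in PC-3 at both times. It encodes a subunit of the GINS complex and was at 23.8 and 24.6 in PC-3 with DMSO, 72.6, 76.7 and 69.2 after 12 h and 64.7, 65.3 and 68.0 after 24 h. This was 3.01 and 2.73 times the control, without overlap (1.59 ± 0.10 and 1.45 ± 0.10, adjusted p = 5.60e-08 and 3.20e-07). In CT1258 GINS4 was at 32.4, 47.4 and 35.7 with DMSO, 89.1, 94.1 and 92.0 after 12 h and 71.4, 73.7 and 84.4 after 24 h (1.25 ± 0.13 and 0.99 ± 0.13, adjusted p = 1.14e-06 and 1.63e-05). In LNCaP it was at 29.5, 21.1 and 14.7 with DMSO, 63.9, 163 and 70.0 after 12 h and 54.0, 55.4 and 60.9 after 24 h. The groups did not overlap there, and the 12 h value was 2.18 ± 0.38 (adjusted p = 0.0120), or 1.62 ± 0.21 without replicate 2. Exons of noncoding genes on the opposite strand cover 23.4% of its exon bases in the human annotation.

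GINS1 and GINS2 rose in the human lines, in LNCaP at 0.05. GINS1 was at 22.9 and 24.5 in PC-3 with DMSO, 57.3, 52.3 and 53.7 after 12 h and 59.9, 50.8 and 43.1 after 24 h (1.20 ± 0.14 and 1.11 ± 0.14). In LNCaP it was at 60.0, 47.6 and 23.1 with DMSO, 174, 249.96 and 166 after 12 h and 120.5, 138 and 144 after 24 h (2.17 ± 0.32 and 1.62 ± 0.32, adjusted p = 0.00801 and 0.0345), and 1.97 ± 0.28 after 12 h without replicate 2. No treated sample of either line overlapped its controls.

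GINS2 was at 19.2 and 20.5 in PC-3 with DMSO, 40.6, 39.8 and 39.1 after 12 h and 40.1, 37.1 and 37.8 after 24 h (1.01 ± 0.10 and 0.95 ± 0.10). It was at 18.6, 11.4 and 8.95 in LNCaP with DMSO, 35.9, 52.6 and 36.2 after 12 h and 33.5, 38.0 and 37.2 after 24 h (1.67 ± 0.28 and 1.48 ± 0.27), and 1.47 ± 0.23 after 12 h without replicate 2. In CT1258 it was at 6.20, 9.20 and 7.60 with DMSO, 6.66, 8.03 and 5.88 after 12 h and 6.01, 8.0 and 5.29 after 24 h. The canine groups overlapped (-0.16 ± 0.20 and -0.25 ± 0.20), and the response differed from that of PC-3 by 1.15 ± 0.32 after 12 h and 1.20 ± 0.32 after 24 h (adjusted p = 0.00792 and 0.00913). GINS3 was at 56.8 and 71.9 in PC-3 with DMSO, 76.1, 76.6 and 74.98 after 12 h and 87.6, 85.6 and 82.2 after 24 h, and did not pass 0.001. In LNCaP it went from 19.5, 16.8 and 11.7 with DMSO to 32.4, 36.1 and 36.4 after 12 h and 33.9, 34.6 and 32.8 after 24 h. Its response was the larger one in LNCaP (1.13 ± 0.20 and 1.08 ± 0.20), by 0.86 after 12 h and 0.65 after 24 h on the log2 scale (adjusted p = 0.00393 and 0.0370). Without replicate 2 these differences, PC-3 minus LNCaP, were -0.86 ± 0.19 and -0.66 ± 0.18.

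CDC45, which joins GINS and the MCM ring in the active helicase, was at 31.5 and 29.4 in PC-3 with DMSO, 50.1, 52.3 and 51.0 after 12 h and 66.9, 57.6 and 59.9 after 24 h. It rose by 0.75 ± 0.11 and 1.01 ± 0.11 without overlap. In LNCaP it was at 22.9, 24.9 and 16.5 with DMSO, 73.0, 141 and 73.0 after 12 h and 55.0, 58.6 and 52.9 after 24 h. Treated and control samples were far apart, with 2.16 ± 0.28 and 1.37 ± 0.28 (adjusted p = 0.00637 and 0.0373), and 1.77 ± 0.15 after 12 h without replicate 2. The response after 12 h was larger in LNCaP than in PC-3 (difference -1.37 ± 0.27, adjusted p = 0.00105), and -1.02 ± 0.18 without replicate 2 of the LNCaP 12 h group. In CT1258 CDC45 rose after 24 h (0.58 ± 0.11) and stood at 0.23 ± 0.11 after 12 h (adjusted p = 0.0691). The 24 h call was lost in 6 of 18 alternatives. Without CT1258 DMSO replicate 2, CDC45 passed 0.001 at both times. Its log2 fold change was then 0.36 ± 0.08 after 12 h (adjusted p = 0.000305) and 0.70 ± 0.08 after 24 h (adjusted p = 6.38e-08).

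With all samples included, the kinase that fires origins and its activator rose in CT1258 at 0.001, and the kinase in LNCaP at 0.05. DBF4, its activator, was at 45.2, 46.8 and 44.5 in CT1258 with DMSO, 125, 126 and 118 after 12 h and 150.0, 159.7 and 166 after 24 h. The 3 groups were separate from each other, with 1.44 ± 0.08 and 1.80 ± 0.08 over DMSO (adjusted p = 5.84e-09 and 1.17e-09). CDC7, the kinase, rose by 1.25 ± 0.09 and 0.83 ± 0.09 there. In LNCaP CDC7 rose by 1.39 ± 0.30 and 1.33 ± 0.30 (adjusted p = 0.0241 and 0.0487). Without replicate 2 of the 12 h group, CDC7 rose by 1.67 ± 0.18 and 1.33 ± 0.17 (adjusted p = 0.000477 and 0.00104). DBF4 was not under 0.05 in LNCaP with that library. Without that library, DBF4 rose by 1.21 ± 0.26 and 0.97 ± 0.23 (adjusted p = 0.00672 and 0.0137). In PC-3, DBF4 was at 26.3 and 46.7 with DMSO, 55.2, 48.7 and 48.0 after 12 h and 45.5, 49.6 and 43.4 after 24 h. The PC-3 controls were far apart and the 24 h samples overlapped them, and neither DBF4 nor CDC7 passed 0.001 in that line. The response of DBF4 was larger in CT1258 than in PC-3 after 24 h (difference -1.48 ± 0.36, adjusted p = 0.00505).

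SSBP1 had the largest log2 fold change of the members tested in CT1258. It was at 2.23, 3.23 and 2.63 there with DMSO, 12.5, 12.6 and 13.5 after 12 h and 13.4, 10.2 and 12.5 after 24 h, from 45 to 109 reads a sample. This was 4.75 and 4.45 times the control, without overlap (2.25 ± 0.17 and 2.15 ± 0.17, adjusted p = 8.35e-08 and 2.16e-07). In PC-3 it was at 98.8 and 127 with DMSO, 112, 106 and 101 after 12 h and 110.0, 110.3 and 101 after 24 h, and the groups overlapped (-0.08 ± 0.11 and -0.07 ± 0.11). In LNCaP its log2 fold change was 0.17 ± 0.19 and 0.31 ± 0.19, and 0.34 ± 0.12 after 12 h without replicate 2 (adjusted p = 0.0617). The CT1258 response differed from that of PC-3 by -2.35 ± 0.25 after 12 h, PC-3 minus CT1258 (adjusted p = 3.29e-07). With DMSO the level of SSBP1 per kilobase of canonical transcript was the highest of the 36 in PC-3 (167 CPM per kb) and LNCaP (177 CPM per kb), followed by POLD2 (121 and 130 CPM per kb).

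Across lines, 7 members rose in both PC-3 and CT1258 at 1 or both times (POLA1, POLA2, RPA2, FEN1, DNA2, CDC45 and GINS4), which is 7 of the 19 called higher in PC-3 and of the 16 called higher in CT1258. Of the 31 members tested in both lines, 16 were called higher in PC-3, 16 in CT1258 and 7 in both, where 15.9%, 24.2% and 6.0% of the 8703 genes tested in both were. POLD4 fell in both. With LNCaP at 0.05, POLA1, POLA2, FEN1, CDC45 and GINS4 rose in all 3 lines, where 1.55% of the 8265 genes tested in all 3 did. For 21 of 31 members tested in all 3 lines every log2 fold change was above 0, against 14.6% of all such genes. With all samples included, POLD2, POLE4 and RNASEH2C were called in no comparison with DMSO.

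The test of the difference between lines used the 11736 genes shared by symbol and tested, 32 members among them, at an adjusted p of 0.05. RNASEH2C was 1 of the 32, though its 0 counts in CT1258 left no response to compare with that line. It compares fold changes within each table, and the human and canine tables came from other aligners and annotations. Between PC-3 and LNCaP, 11 members differed after 12 h, where 19.6% of all genes did, each with the higher value in LNCaP, and 1 after 24 h, against 9.70%. Between PC-3 and CT1258, 9 members differed after 12 h and 8 after 24 h, against 30.1% and 21.2%. Between LNCaP and CT1258, 16 differed at each time, against 40.2% and 21.1%. The member shares in the PC-3 against CT1258 comparisons were thus near those of all genes. Without replicate 2 of the LNCaP 12 h group, which shares its estimate of spread with all groups, 14 and 7 members differed between PC-3 and LNCaP (25.6% and 22.8% of all genes), POLE (0.56 ± 0.16 after 12 h) and RNASEH1 (0.60 ± 0.17 after 12 h) then having the higher value in PC-3, 16 and 16 between PC-3 and CT1258 (44.1% and 35.9%) and 14 and 21 between LNCaP and CT1258 (38.7% and 36.5%). Without PC-3 DMSO replicate 3 the counts against LNCaP were 7 and 0 and those against CT1258 were 5 and 3, and without CT1258 DMSO replicate 2 the LNCaP against CT1258 count after 24 h was 7.

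Other genes of the fork were counted from lists of names, for LNCaP with replicate 2 of the 12 h group included. Of the MCM2 to MCM7 helicase genes, 4 of 6 rose in PC-3 after 12 h and 5 after 24 h, and 6 and 4 were under 0.05 and higher in LNCaP. The shares of all genes called higher were those given above, 13.0% and 8.88% in PC-3, 4.52% and 1.35% at 0.05 in LNCaP and 22.2% and 16.6% in CT1258. In CT1258, 3 of 6 rose after 12 h, and after 24 h none rose and 2 fell, with a median of -0.36 where the polymerases and factors had 0.31. Of 14 accessory and origin firing genes, 9 rose in PC-3 at each time, with medians of 1.08 and 1.02, and 8 and 7 of 10 rose in CT1258. In LNCaP 9 and 6 of the 14 were higher at 0.05. These accessory genes include the fork protection factors TIMELESS and TIPIN and the alternative clamp loader subunits.

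For the polymerases of repair, translesion synthesis and mitochondria, the counts in PC-3 were near the shares of all genes. Of 13 tested in PC-3, 2 rose and 1 fell after 12 h, and 1 rose and 1 fell after 24 h, where 13.0% and 14.6%, and 8.88% and 10.5%, of all genes did. Of 8 tested in CT1258, 4 rose and 2 fell at each time, and in LNCaP 2 and 1 of 13 were higher at 0.05. The medians were 0.33 and 0.36 in PC-3, 0.53 and 0.53 in CT1258 and, after 12 h, -0.11 in LNCaP. Of 12 G2/M genes, 2 rose in PC-3 after 12 h and 1 after 24 h, again near the share of all genes, and 9 and 10 of 11 rose in CT1258, where 22.2% and 16.6% of all genes did, and 5 and 0 were higher at 0.05 in LNCaP. Their summed level was between 1092 and 1446 CPM in PC-3 with DMSO, between 1706 and 1801 CPM after 12 h and between 1493 and 1859 CPM after 24 h. In LNCaP it was between 493 and 1240.1 CPM with DMSO, between 1966 and 2474 CPM after 12 h and between 1798 and 2076 CPM after 24 h. In CT1258 it was between 857 and 1027 CPM with DMSO, between 1940 and 2081 CPM after 12 h and between 2315 and 2399 CPM after 24 h. It was thus above the controls in every treated sample of the 3 lines, and from 12 h to 24 h in CT1258 it was higher while the sum of the fork genes was lower. Their part in the results on fork genes was not tested.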

How the data were processed

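RNA-seq gene counts were analysed for 26 samples of PC-3, LNCaP and CT1258. The authors deposited raw read counts per gene, 1 table for each cell line. Per the study's methods, single reads of poly(A) RNA were aligned with STAR (version 2.3.1s) to HG19 for the human lines and with BWA to CanFam3.1 for CT1258, each culture being an independent biological replicate. The handling of strand and of multi-mapping reads is not given in the sources used here. PC-3 DMSO replicate 1 was not analysed here, and 2 PC-3 PDA-66 12 h samples share a description, so their replicate numbers were not used.

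Counts were filtered (filterByExpr), scaled by TMM and fitted for each line over its 3 groups with edgeR 4.0.16 (R 4.3.3), with its quasi-likelihood test and p-values adjusted by Benjamini-Hochberg across the genes tested, at the study's threshold of 0.001. Differences between lines were tested as an interaction over shared symbols at 0.05. SE is the absolute log2 fold change divided by the square root of F. DESeq2 1.42.0, limma 3.58.1 (voom with sample quality weights), other scalings, filters and left-out samples were alternatives. The scripts were tested on simulated data. Python 3.11.15 was used for annotation (GENCODE on GRCh37, RefSeq promoters on GRCh38.p14).

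The members and the other gene lists were chosen with earlier results of these data known. Sample values are printed for 15 members: the 4 with the largest absolute change among those called in a comparison with DMSO (at 0.05 in LNCaP), those called in opposite directions in different lines, and the first 2 by p of each difference between lines. PCNA and POLD1 were added after their values were seen.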

Additional observations from a re-analysis of the deposited data

Results flagged for a closer look

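Results are listed here because the response to PDA-66 differed between cell lines in the interaction test (edgeR's quasi-likelihood test, adjusted p under 0.05). Differences are log2 fold changes of the first line minus those of the second. Between PC-3 and LNCaP, 11 members differed after 12 h, with CDC45 at -1.37 and POLD4 at -1.52, and 1 after 24 h, GINS3 at -0.65, where 19.6% and 9.70% of all genes did. Between PC-3 and CT1258, 9 members differed after 12 h, with SSBP1 at -2.35 and RNASEH2A at 1.75, and 8 after 24 h, with SSBP1 at -2.24 and RNASEH2A at 1.60, where 30.1% and 21.2% of all genes did, so these counts of 32 members were near the share of all genes. Between LNCaP and CT1258, 16 members differed after 12 h, with RNASEH2A at 2.74 and SSBP1 at -2.13, and 16 after 24 h, with SSBP1 at -1.88 and RNASEH2A at 1.71, where 40.2% and 21.1% of all genes did. RNASEH2A and SSBP1 are the members whose canine and human responses lay farthest apart, and the 2 species were aligned and annotated separately, which cannot be told apart from the line.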

How the results depend on the processing

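Of the 96 results for single members called in a comparison with DMSO (LNCaP at 0.05), 48 kept their call under each alternative run, 48 lost it under at least 1, and 0 changed sign. Of the other values, 407 settings left the value within its spread or within 1.5 times the count, and 97 moved it, as follows. The cause was not tested. Unless a share is printed, counts under an alternative, here and above, stand without the share of all genes under the same setting. A shift particular to the members cannot be read from them. A lone sample left in an arm was assumed to vary like the other groups.

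In PC-3, raising the threshold to 0.05 gave 27 members after 12 h and 29 after 24 h. Leaving out a sample gave medians from 0.46 to 0.71 after 12 h and from 0.56 to 0.68 after 24 h, and scaling by total counts gave 0.71 after 24 h. From 12 h to 24 h, voom with quality weights called 6 and a threshold of 0.05 gave 1.

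In LNCaP at 0.001, DESeq2's Wald test called 17 members after 12 h and 9 after 24 h, edgeR's likelihood ratio test 16 and 9, and voom 25 and 27, where the main test called 0. Left-out samples gave 0 to 10 and 0 to 6, with medians from 0.82 to 1.13 and from 0.76 to 1.00. At 0.05, the counts of 19 and 12 became 30 and 31 with voom, and 0 and 27 with only the 2 groups compared. After 24 h, DESeq2 gave 21 and the likelihood ratio test 20. Left-out samples gave 8 to 28 after 12 h and 0 to 29 after 24 h.

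In CT1258, left-out samples gave medians from 0.45 to 0.61 after 12 h and from 0.24 to 0.37 after 24 h, and total counts gave 0.53 after 12 h. After 24 h, voom called 22 members and a threshold of 0.05 gave 21. From 12 h to 24 h, DESeq2 called 3, the likelihood ratio test 2, voom 7 and a fit of only those 2 groups 5, left-out samples gave 0 to 6, and 0.05 gave 6.

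For differences between PC-3 and LNCaP, voom gave 18 members after 12 h and 10 after 24 h, DESeq2 gave 2 after 24 h, left-out samples gave 7 to 14 and 0 to 7, and a threshold of 0.001 gave 0 at each time. Between PC-3 and CT1258, voom gave 15 and 16, left-out samples 5 to 16 and 3 to 16, and 0.001 gave 2 and 2. Between LNCaP and CT1258, left-out samples gave 7 to 21 after 24 h, and 0.001 gave 10 and 3.

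Correlations of deviations between same-numbered samples ran from -0.42 to 0.19. Differently numbered samples reached 0.45, for LNCaP DMSO replicate 2 with replicate 1 of the 12 h group. Pairing by number was thus not seen, and this check cannot exclude it, since deviations in such small groups also carry traits of single libraries. A replicate block gave 10 members in PC-3 after 24 h, the only comparison with DMSO that it could be fitted for in that line. In LNCaP the block gave 12 members after 12 h and 0 after 24 h at 0.05, and in CT1258 it gave 0 from 12 h to 24 h.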
